A study of Homo sapiens with 6 samples.

Results

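The cadherin switch genes and the transcription factors of the epithelial-mesenchymal transition (EMT) were followed across 6 RNA sequencing libraries of melanospheres. The members were 10 genes taken by symbol from a fixed list (CDH1, CDH2, SNAI1, SNAI2, ZEB1, ZEB2, TWIST1, TWIST2, VIM and FN1), and the 10 were present among the 58395 genes of the table. The libraries came from cells labelled M14, an established human melanoma cell line, grown without attachment so that they formed floating spheres. The spheres were taken apart mechanically, stained for CD20, a surface protein of B cells whose gene is MS4A1, and flow sorted into 3 CD20-positive and 3 CD20-negative fractions, numbered 1 to 3 in each group. No drug, gene edit or other treatment is given in the labels for either group, both fractions come from the same line, and nothing says that the replicates were separate cultures. The p-values therefore reflect only how these libraries vary, which may be technical.

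In an epithelial sheet, E-cadherin (CDH1) joins neighbouring cells and anchors to actin through the catenins. During an EMT, zinc finger repressors (SNAI1, SNAI2, ZEB1, ZEB2) and basic helix-loop-helix factors (TWIST1, TWIST2) are induced, E-cadherin is lost, N-cadherin (CDH2) takes its place in what is called the cadherin switch, and the intermediate filament vimentin (VIM) and the matrix glycoprotein fibronectin (FN1) rise. In the melanocyte lineage, which derives from the neural crest, ZEB2 and SNAI2 are known as factors of the differentiated state and ZEB1 and TWIST1 as factors of the invasive state.

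Promoter sequences are shown for FN1 and CDH2, the members whose sorted groups did not overlap, and for ZEB1 and TWIST2, the factors that exceeded their own paralogs. Each is the 250 bases before the RefSeq transcription start (GRCh38.p14), 5′ to 3′ on the gene's strand. Capitals mark matches on either strand to CAGGTG (the E-box that SNAI and ZEB zinc fingers bind), TGACGTCA (the cyclic AMP response element), CCAAT (the CCAAT box), GGGCGG (the GC box) and TATAAA (the TATA box), and other E-boxes are in lower case. Positions count backwards from -1, the base before the start, to the first base of a match.
FN1, chr2:215436069-215436318, minus strand: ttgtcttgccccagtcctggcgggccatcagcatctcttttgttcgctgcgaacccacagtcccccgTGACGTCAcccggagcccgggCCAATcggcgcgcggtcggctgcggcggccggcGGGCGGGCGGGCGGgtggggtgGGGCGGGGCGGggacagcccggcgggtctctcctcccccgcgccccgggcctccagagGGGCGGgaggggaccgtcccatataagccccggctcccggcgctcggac
CDH2, chr18:28177131-28177380, minus strand: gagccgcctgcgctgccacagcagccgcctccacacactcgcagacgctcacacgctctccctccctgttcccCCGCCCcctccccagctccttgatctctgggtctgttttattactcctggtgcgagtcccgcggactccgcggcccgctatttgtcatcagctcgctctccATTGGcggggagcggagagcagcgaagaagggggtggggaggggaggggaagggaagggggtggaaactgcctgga
ZEB1, chr10:31318167-31318416, plus strand: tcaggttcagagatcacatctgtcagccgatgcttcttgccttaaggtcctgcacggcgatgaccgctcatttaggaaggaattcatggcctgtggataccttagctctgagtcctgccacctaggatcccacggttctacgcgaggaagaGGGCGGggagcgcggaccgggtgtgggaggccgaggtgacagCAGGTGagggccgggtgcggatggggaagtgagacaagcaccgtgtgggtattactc
TWIST2, chr2:238847835-238848084, plus strand: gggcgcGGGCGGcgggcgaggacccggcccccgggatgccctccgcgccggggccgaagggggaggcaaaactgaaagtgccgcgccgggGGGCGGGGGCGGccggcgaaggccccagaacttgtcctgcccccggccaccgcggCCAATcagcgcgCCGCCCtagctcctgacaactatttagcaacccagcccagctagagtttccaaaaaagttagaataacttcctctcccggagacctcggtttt

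The FN1 window held 1 cyclic AMP response element at -183, a CCAAT box at -162 and 6 GC boxes. The response element was present in 1.63% of the 34943 different 250-base windows of the RefSeq promoter table, and the GC box in 42.6%. The CDH2 window held a reversed CCAAT box at -76 and a reversed GC box at -177. CAGGTG occurred in 17.5% of all windows, and among the members with a window only ZEB1 held it, at -57 in the window shown and at -242 and -85 in another of its 7 start windows. RefSeq windows were found for 6 of the 10 members (13 windows), with CDH1, SNAI1, SNAI2 and TWIST1 unmatched. Any E-box, CANNTG, of which CAGGTG is a subset, occurred in 61.8% of windows and in 3 of the 6 members. Such matches describe letters and not bound sites.

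Each library held 15651172 to 17915936 fragments. Levels are in FPKM, fragments scaled by exon length and by a factor per library, so that levels of different genes can be compared per length. That factor did not follow the fragment totals: 1 fragment per kilobase was worth 0.0532 FPKM in CD20-negative replicate 1 and 0.0662 FPKM in CD20-positive replicate 1, whose totals were 17564536 and 17479732 fragments. The FPKM totals ran from 276912 to 295179 in CD20-negative and from 338125 to 512113 in CD20-positive libraries. MS4A1 was higher in each CD20-positive library (0.966 to 1.28 FPKM) than in any CD20-negative library (0.225 to 0.403 FPKM). Mitochondrially encoded genes took 11.9 to 20.6% of the fragments in CD20-positive and 4.25 to 5.73% in CD20-negative libraries. This share moved with the sorted group in every comparison below, and its part in them was not tested.

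The labelled melanoma identity was checked against lineage markers. SOX10 and TYR, which define melanocytic cells, reached at most 0.0717 and 0.0207 FPKM, MLANA at most 0.262 FPKM, and TRPM1, SLC45A2, EDNRB and PAX3 were listed at 0 throughout. Of the 16 melanocytic markers, 4 reached a mean of 1 FPKM, namely MITF at 2.19 FPKM in CD20-negative and 2.04 FPKM in CD20-positive cells, S100A1 at 1.38 and 1.40 FPKM, PMEL at 14.96 and 26.1 FPKM, and GPR143 at 1.26 to 13.4 FPKM over the 6 libraries. The epithelial keratin KRT8 had means of 198 and 227 FPKM and KRT18 of 181 and 193 FPKM in the same order, and 9 of the 16 epithelial markers reached 1 FPKM. The other 7 did not. KRT6A, ESRP1 and GRHL2 were listed at 0 throughout, and KRT5, KRT14, OVOL1 and RAB25 reached at most 0.118, 0.0273, 0.0972 and 0.198 FPKM. Most melanocytic markers were thus under 1 FPKM while PMEL and GPR143 were present, and the cells are called here by their label only.

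**Figure D1:**
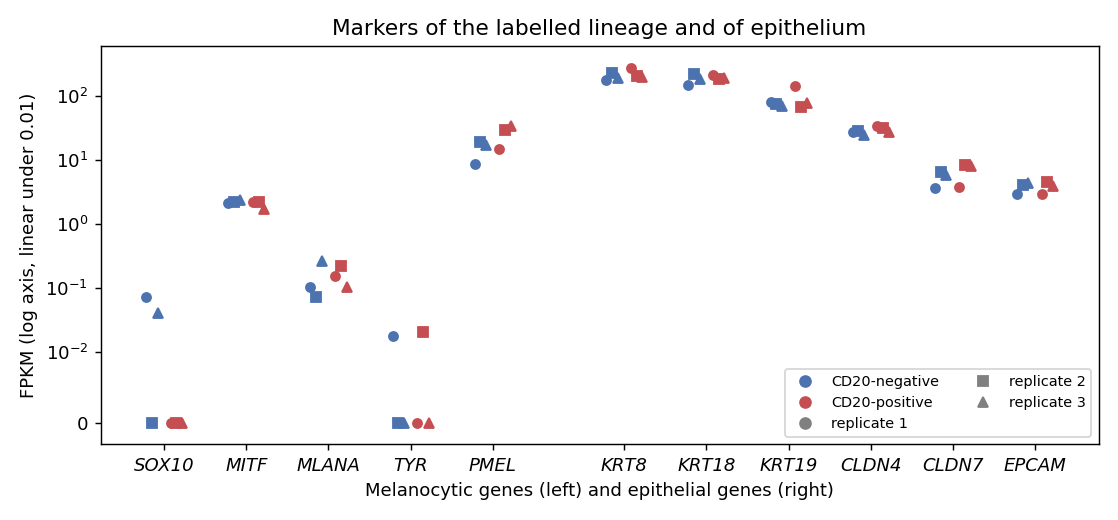
FPKM (log axis, linear under 0.01) of 5 melanocytic and 6 epithelial marker genes in each library, with colour for the sorted fraction and marker shape for the replicate number. SOX10, MLANA and TYR lie under 0.3 FPKM in each library, whereas MITF, PMEL and the 6 epithelial genes drawn lie above 1 FPKM. Of the 16 melanocytic markers, 4 reached a mean of 1 FPKM, and GPR143 and S100A1 among them are not drawn. Of the 16 epithelial markers, 7 that are not drawn lie under 1 FPKM.

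Across the 10 members, the levels fell into an expressed set of 7 genes, which had means of at least 1 FPKM and were tested, and a set of 3 genes (CDH1, ZEB2 and TWIST1) with means under 0.2 FPKM. Over the 6 libraries VIM was highest, with a mean of 49.99 FPKM, followed by FN1 at 38.4, TWIST2 at 20.7, SNAI1 at 11.2, CDH2 at 4.56, ZEB1 at 3.26 and SNAI2 at 1.79 FPKM. In that order the ranges of VIM and FN1 overlapped, as did those of FN1 and TWIST2 and of CDH2 and ZEB1. The ranges of TWIST2 and SNAI1, of SNAI1 and CDH2, of ZEB1 and SNAI2, and of SNAI2 and ZEB2 did not. ZEB2 (0.121 FPKM), TWIST1 (0.1199 FPKM) and CDH1 (0.0695 FPKM) could not be ordered, since their ranges overlapped. Among protein-coding genes VIM lay at the 96.5 percentile, TWIST2 at the 89.4 percentile, SNAI1 at the 80.7 percentile and CDH2 at the 64.2 percentile of mean level.

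**Figure D2:**
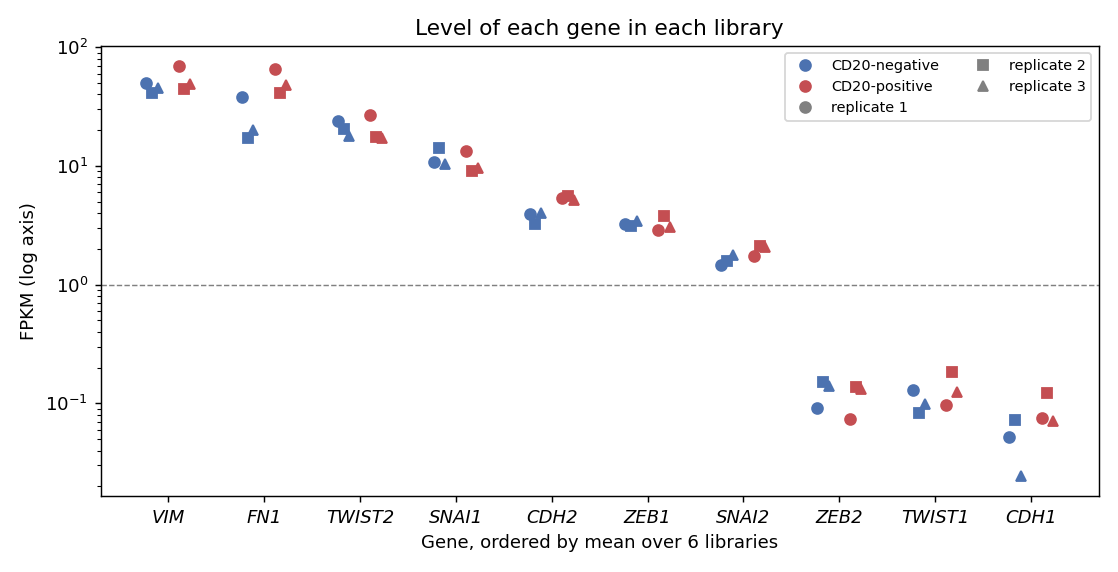
FPKM (log axis) of each member in each library, ordered by the mean over 6 libraries, with colour for the sorted fraction, marker shape for the replicate number and a dashed line at 1 FPKM, the filter for testing. VIM to SNAI2 lie above the line in each library, and ZEB2, TWIST1 and CDH1 lie under 0.2 FPKM.

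CDH2 RNA exceeded CDH1 RNA in each library of either fraction, the order that a cadherin switch leaves. No cells from before a switch were measured, so a switch itself was not tested. CDH1 (ENSG00000039068, GRCh38 chromosome 16, 68737225 to 68835548) measured 0.0517, 0.0726 and 0.0246 FPKM in CD20-negative replicates 1, 2 and 3 and 0.0750, 0.121 and 0.0717 FPKM in the CD20-positive replicates. These values rest on 6, 8 and 3 fragments against 7, 12 and 7 fragments, and the groups overlapped. In the fit with no filter the log2 change of CDH1 was 0.05 ± 0.04 (SE, adjusted p = 0.797), so no difference was detectable at this depth. Each numbered pair was higher in the CD20-positive library, by ratios of 1.452, 1.668 and 2.92, and the adjusted p with the block and no filter was 0.676.

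CDH2 (ENSG00000170558, GRCh38 chromosome 18, 27950966 to 28177446) measured 3.94, 3.26 and 4.02 FPKM in CD20-negative and 5.38, 5.59 and 5.14 FPKM in CD20-positive replicates 1, 2 and 3. The lowest CD20-positive library lay above the highest CD20-negative library, and the ratio within a numbered pair was 1.36, 1.71 and 1.28. The means were 3.74 ± 0.418 and 5.37 ± 0.229 FPKM (SD, n = 3), a log2 change of 0.43 ± 0.13 (SE), which did not pass limma's test without the replicate block (adjusted p = 0.371) or with it (adjusted p = 0.0872). Voom with the replicate block, which called 11.7% of genes, gave an adjusted p of 0.0383. Leaving out replicate 1 from both groups gave 0.0473 in limma, in a fit that called 1813 of 13155 genes. In the blocked limma fit with each gene's own spread the adjusted p of CDH2 was 0.439, so its call rests on the setting. An antisense gene within its span, ENSG00000227279, averaged 0.232 FPKM, and the library kit named in the labels does not mark strand, so its reads cannot be told apart from those of CDH2 where exons overlap.

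The ratio of CDH2 to CDH1, in FPKM, was 76.3, 44.9 and 164 in CD20-negative and 71.7, 46.2 and 71.7 in CD20-positive replicates 1, 2 and 3. N-cadherin RNA exceeded E-cadherin RNA in 6 of 6 libraries, and the groups overlapped. The low fragment counts of CDH1, 3 to 12 per library, limit this ratio.

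FN1 was the member with the largest difference between fractions. FN1 (ENSG00000115414, GRCh38 chromosome 2, 215360440 to 215436172), whose promoter with the cyclic AMP response element is printed above, measured 38.2, 17.1 and 19.9 FPKM in CD20-negative replicates 1, 2 and 3 and 65.7, 41.1 and 48.1 FPKM in the CD20-positive replicates. The lowest CD20-positive library lay only a little above the highest CD20-negative library, and replicate 1 was the highest of its group in each fraction. Within numbered pairs the ratios were 1.72, 2.40 and 2.42. The means were 51.6 ± 12.7 and 25.1 ± 11.5 FPKM (SD, n = 3), a 2.06-fold ratio.

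On the log2(FPKM + 1) scale FN1 changed by 1.07 ± 0.32 (SE) without the replicate block, where limma gave an adjusted p of 0.390, and it was called higher with the block (SE 0.15, adjusted p = 0.00426). With the block and without replicate 2 in both groups FN1 changed by 1.00 and was no longer called (adjusted p = 0.0953), in a fit that called 1 gene of all 13155. In the blocked fit with each gene's own spread, from 2 residual degrees of freedom, its adjusted p was 0.439. Scaling by the FPKM total lowered the change to 0.57, where the median of all tested genes was -0.41. In bulk RNA, more cells expressing a gene and more RNA of it per cell cannot be told apart.

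VIM (ENSG00000026025, GRCh38 chromosome 10, 17228259 to 17237593) measured 50.2, 41.3 and 45.4 FPKM in CD20-negative and 68.96, 44.9 and 49.3 FPKM in CD20-positive replicates 1, 2 and 3. Each numbered pair was higher in the CD20-positive library, by ratios of 1.37, 1.09 and 1.09, and the groups overlapped. The log2 change was 0.23 ± 0.20 (SE), with limma adjusted p of 0.755 without and 0.436 with the replicate block, and it became -0.28 with libraries scaled by their FPKM totals. That scaling moved the median of all tested genes to -0.41, so VIM stayed above the median.

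**Figure D3:**
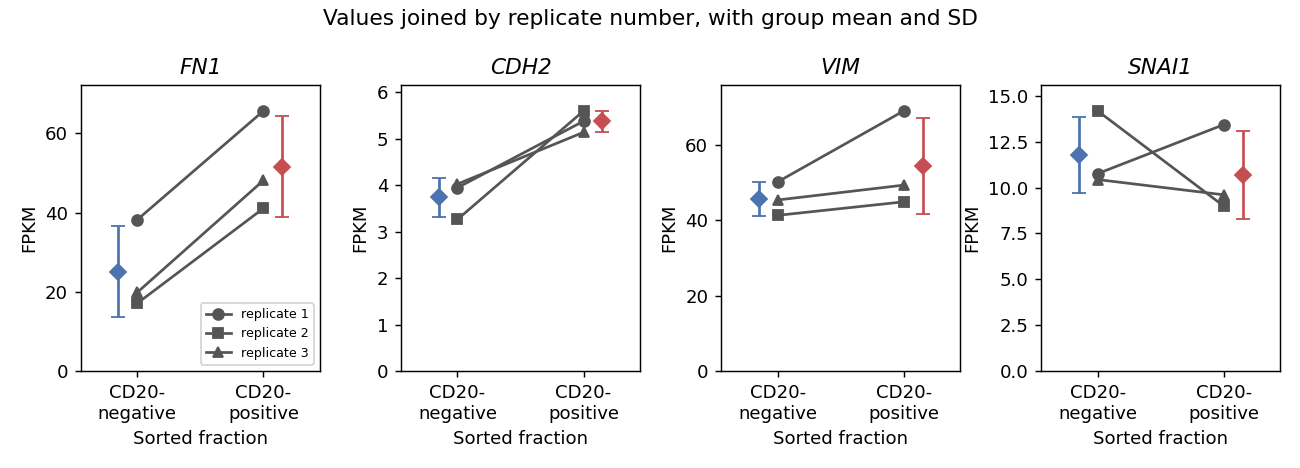
FPKM (linear axes from 0) of FN1, CDH2, VIM and SNAI1 in each library, joined by replicate number, with diamonds and bars for the group mean and SD (n = 3). FN1, CDH2 and VIM were higher in the CD20-positive library of 3 of 3 pairs, and SNAI1 in 1 of 3.

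Of the 7 tested members, 2 (CDH2 and FN1) had groups that did not overlap and were higher in CD20-positive cells, against a background of 8.87% of the 13155 tested genes, and 0 were lower, against 6.14%. In 4 of the 7 (CDH2, SNAI2, VIM and FN1) each of the 3 pairs was higher in the CD20-positive library, as in 21.8% of tested genes. Limma without the replicate block called 0 of the 7, with 2 at an unadjusted p under 0.05 (9.2% of tested genes), and voom without the block also called 0. Limma without the block called 1 gene in all, the mitochondrial tRNA gene MT-TE, which is 0.0076% of those tested. With the block 1 of the 7 was called, FN1, against 5.83% of tested genes in either direction, 3.19% higher and 2.64% lower. Voom with the block called 2, CDH2 and FN1, where it called 11.7% of genes, 5.81% higher and 5.91% lower. With the block at a filter of 10 FPKM FN1 was called, where 21.2% of genes were, 9.93% higher and 11.3% lower. The median log2 change of the 7 was 0.18, and that of all tested genes was 0.00025.

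**Figure D4:**
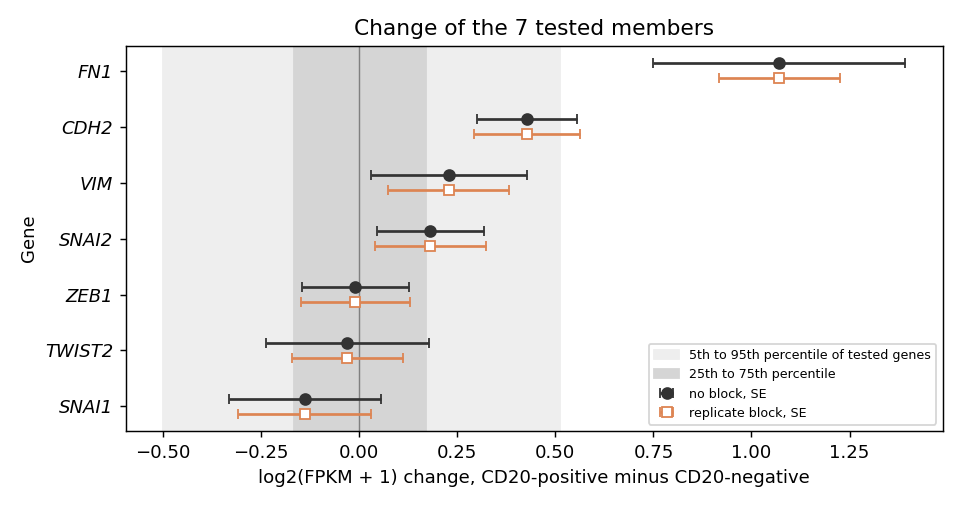
Change in log2(FPKM + 1), CD20-positive minus CD20-negative, of the 7 tested members, with bars for the SE without (filled circles) and with (open squares) the replicate block, over shaded percentiles of all tested genes. FN1 at 1.07 lies beyond the 95th percentile of 0.51, CDH2 at 0.43 lies between the 75th (0.17) and the 95th, and SNAI1, TWIST2 and ZEB1 lie between the 25th percentile of -0.17 and 0.

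The zinc finger repressors of the SNAI family were present in each library. SNAI1 (ENSG00000124216, GRCh38 chromosome 20, 49982999 to 49988886), a direct repressor of E-cadherin whose protein is short-lived, measured 10.8, 14.2 and 10.4 FPKM in CD20-negative and 13.4, 8.99 and 9.60 FPKM in CD20-positive replicates 1, 2 and 3. It was higher in the CD20-positive library of pair 1 and lower in pairs 2 and 3, and the groups overlapped. The log2 change was -0.14 ± 0.19 (SE, limma adjusted p = 0.863, and 0.703 with the block).

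SNAI2 (ENSG00000019549, GRCh38 chromosome 8, 48917604 to 48921740), which encodes SLUG, measured 1.48, 1.58 and 1.79 FPKM in CD20-negative and 1.73, 2.11 and 2.06 FPKM in CD20-positive replicates 1, 2 and 3. The CD20-positive library was higher in each of the 3 pairs, but CD20-positive replicate 1 lay under CD20-negative replicate 3. The log2 change of 0.18 ± 0.14 (SE) did not pass (limma adjusted p = 0.718, and 0.509 with the block), and scaling each library by its FPKM total gave -0.14, where the median of all tested genes was -0.41. SNAI1 exceeded SNAI2 in each library, by 4.26-fold to 8.97-fold in FPKM.

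ZEB1 carried most of the ZEB signal. ZEB1 (ENSG00000148516, GRCh38 chromosome 10, 31318495 to 31529814), the repressor that the miR-200 family holds down in epithelial cells, measured 3.22, 3.12 and 3.47 FPKM in CD20-negative and 2.91, 3.82 and 3.03 FPKM in CD20-positive replicates 1, 2 and 3. CD20-positive cells held both the highest and the lowest library, and the log2 change was -0.01 ± 0.14 (SE, limma adjusted p = 0.990, and 0.981 with the block). The antisense gene ZEB1-AS1, which overlaps ZEB1, averaged 0.886 FPKM, and the pseudogene SPTLC1P1 within the locus averaged 1.80 FPKM.

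ZEB2 (ENSG00000169554, GRCh38 chromosome 2, 144364364 to 144524583) measured 0.0913, 0.152 and 0.141 FPKM in CD20-negative and 0.0740, 0.137 and 0.131 FPKM in CD20-positive replicates 1, 2 and 3, or 28 to 70 fragments. Replicate 1 was the lowest of its group in each fraction, and the groups overlapped (log2 change -0.02 ± 0.07 SE with no filter, adjusted p = 0.955). Each numbered pair was lower in the CD20-positive library, by ratios of 0.810, 0.900 and 0.930, with an adjusted p of 0.937 with the block and no filter. ZEB1 exceeded ZEB2 by 20.5-fold to 39.3-fold per length. The annotated exons of ZEB2 sum to 25058 bases against 8650 for ZEB1, which lowers the FPKM of ZEB2 where its transcripts use only part of them, but ZEB1 also had more fragments, 380 to 593 per library.

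Of the TWIST genes TWIST2 was expressed and TWIST1 was near the limit of detection. TWIST2 (ENSG00000233608, GRCh38 chromosome 2, 238848032 to 238910543), also known as DERMO1, measured 24.1, 20.3 and 18.0 FPKM in CD20-negative and 26.96, 17.7 and 17.3 FPKM in CD20-positive replicates 1, 2 and 3, on 515 to 850 fragments. Replicate 1 was the highest of its group in each fraction, and the fractions overlapped, with means of 20.8 ± 3.05 and 20.7 ± 5.46 FPKM (SD, n = 3). The log2 change was -0.03 ± 0.21 (SE, limma adjusted p = 0.978, and 0.938 with the block).

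TWIST1 (ENSG00000122691, GRCh38 chromosome 7, 19020991 to 19117672) measured 0.131, 0.0828 and 0.0995 FPKM in CD20-negative and 0.0977, 0.184 and 0.124 FPKM in CD20-positive replicates 1, 2 and 3, which is 5, 3 and 4 against 3, 6 and 4 fragments. TWIST2 exceeded it by 95.98-fold to 276-fold per length, though the range of that ratio follows from so few TWIST1 fragments. No change of TWIST1 was detectable at this depth (log2 change 0.04 ± 0.07 SE with no filter, adjusted p = 0.890).

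SNAI1, TWIST2, VIM and FN1, the 4 members with a mean of at least 10 FPKM, were compared by pattern with the 4503 genes at that level, by Pearson correlation of log2(FPKM + 1) over the 6 libraries, which share their replicate structure. Picked as the highest among so many genes over only 6 libraries, the values below are high by selection. They were not set against a background, and they describe patterns and not partners. The genes most like FN1 were BHLHE40 (0.995), SAT1 (0.984) and SLC12A3 (0.981). Those most like VIM were CD70 (0.987), JUND (0.986) and ZDHHC12 (0.982). The genes most like TWIST2 included WDR1 (0.999) and ACTR1A (0.997), and SNAI1 was matched by ARMC6 (0.990), UBXN1 (0.979) and LMNB2 (0.976). Among the members themselves the correlation was 0.80 for FN1 and VIM, 0.65 for SNAI1 and TWIST2, and -0.21 for SNAI1 and FN1.

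The wider pathway was read from 8 lists of genes around the transition. Apart from the members, the lists held 201 measured genes, of which 140 passed the filter. With the replicate block 11 of these 140 were called higher and 0 lower, 7.86% against 5.83% of all tested genes, and without the block limma called 0 of any list. Their median log2 change was 0.10.

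Mesenchymal genes that an EMT induces held most of these calls. With the block 8 of 21 tested were called higher, where 3.19% of all tested genes were. Of the 33 genes listed, 12 lay under the filter and 17 had a mean of at least 10 FPKM. In the blocked fit of genes at 10 FPKM or more, 9.93% of all genes were called higher. Without the block 0 of the 21 were called. The median log2 change was 0.45. The lists were chosen with earlier results of these data known, so this count is no independent support for an EMT. COL5A1, a fibrillar collagen chain, went from 49.2 ± 6.65 to 96.3 ± 14.3 FPKM, and ITGA5, the fibronectin receptor subunit, from 30.0 ± 1.62 to 54.2 ± 6.45 FPKM (SD, n = 3). In those 2 genes the groups did not overlap, and their log2 changes were 0.95 and 0.83 (limma with the block, adjusted p = 0.00866 and 0.0112; 0.232 and 0.229 without it). LOX, which crosslinks collagen, went from 4.92 ± 2.77 to 14.2 ± 8.91 FPKM and COL3A1 from 45.6 ± 15.2 to 81.4 ± 24.8 FPKM, with overlapping groups (adjusted p = 0.00958 and 0.0115 with the block, and 0.613 and 0.526 without it). Under scaling to the FPKM total the median of this list was -0.03, where that of all tested genes was -0.41.

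Of 23 tested epithelial genes that EMT factors repress, 1 was called higher with the block, 0 lower and 22 were not called, against 5.83% of all tested genes called, with a median log2 change of 0.19. LSR, a tricellular junction protein, went from 13.8 ± 0.490 to 20.4 ± 1.78 FPKM without overlap (log2 change 0.53, adjusted p = 0.0453 with the block and 0.300 without). ELF3, an epithelial transcription factor, measured 3.40 ± 0.207 and 5.05 ± 0.284 FPKM (adjusted p = 0.0607 with the block), and TJP3, a tight junction scaffold, 2.31 ± 1.03 and 3.71 ± 0.676 FPKM (adjusted p = 0.0631). GRHL2 and ESRP1, which guard the epithelial state, were listed at 0 in 6 of 6 libraries, where a count of 0 allows up to 0.0328 and 0.0407 FPKM (3 fragments, counting error only).

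Of 13 tested catenins and adherens junction genes, partners of the cadherins, 0 were called in either limma fit. Of them 0 had an unadjusted p under 0.05 without the block. Over all tested genes 5.83% were called with the block, 0.0076% without it, and 9.2% had such an unadjusted p. So few genes cannot set this list apart from those shares. The median log2 change of the list was 0.14. NECTIN2, a junctional adhesion molecule, measured 24.1 ± 4.52 FPKM in CD20-negative and 34.5 ± 7.58 FPKM in CD20-positive cells without overlap (adjusted p = 0.072 with the block). Of 12 other listed cadherins 2 reached 1 FPKM, CDH24 at 12.4 ± 1.22 and 16.2 ± 1.97 FPKM and CDH13 at 3.01 ± 1.49 and 3.84 ± 0.551 FPKM, and limma called neither (adjusted p = 0.171 and 0.244 with the block). CDH11, a mesenchymal cadherin, was listed at 0 in each library.

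Of 32 tested genes whose proteins work with SNAI and ZEB factors, 2 were called higher and 0 lower with the block, close to the 5.83% of all tested genes called, and 0 without it, with a median log2 change of -0.04. LOXL2, a lysyl oxidase that also stabilises SNAI1 protein, measured 31.2 ± 7.97 FPKM in CD20-negative and 73.5 ± 27.1 FPKM in CD20-positive cells without overlap (log2 change 1.17, limma with the block, adjusted p = 0.00302; 0.357 without). EZH2, the methyltransferase of Polycomb complex PRC2, went from 14.2 ± 3.62 to 24.2 ± 10.6 FPKM with overlap (0.65, adjusted p = 0.0317 with the block and 0.637 without). Other transcription factors of the transition had 0 of 17 called (median 0.00063) and inducers with their receptors 0 of 21 (median 0.07), with 0 at an unadjusted p under 0.05 without the block in either list. Over all tested genes 5.83% were called with the block, and 9.2% had such an unadjusted p. So few genes cannot set either list apart from those shares. The genes with the smallest p in these lists were FOXC2, a forkhead factor, at 19.5 ± 17.5 and 24.6 ± 21.0 FPKM, and FGFR1, a fibroblast growth factor receptor, at 11.5 ± 1.47 and 14.4 ± 1.37 FPKM, in CD20-negative and CD20-positive cells (adjusted p = 0.180 and 0.212 with the block).

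Genes that process cadherins or bind fibronectin had 2 of 15 called higher with the block, against 3.19% of all tested genes, and 0 lower, against 2.64%. These were FN1 itself and its receptor subunit ITGA5, which the mesenchymal list also counts. NCSTN, a subunit of the gamma-secretase that cleaves cadherins, measured 16.6 ± 0.891 FPKM in CD20-negative and 23.4 ± 1.61 FPKM in CD20-positive cells without overlap (log2 change 0.47, adjusted p = 0.0607 with the block and 0.352 without).

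**Figure D5:**
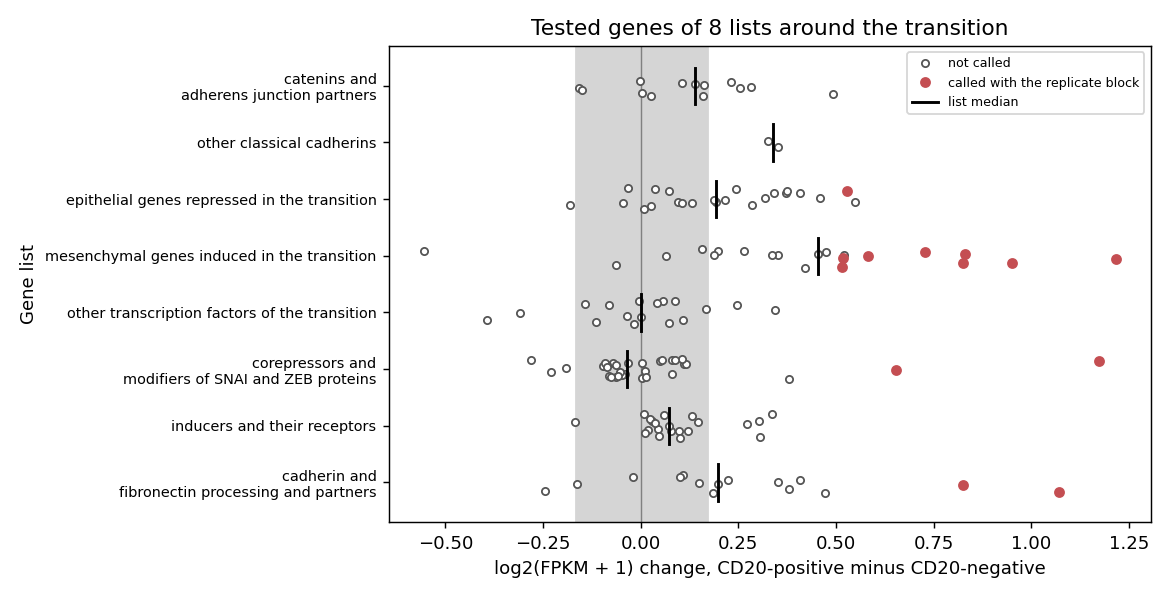
Change in log2(FPKM + 1), CD20-positive minus CD20-negative, of the tested genes of 8 lists (points, with vertical scatter for legibility), with filled points for genes called with the replicate block, black bars for list medians and shading for the 25th to 75th percentile of all tested genes. The mesenchymal list holds 8 called genes of 21, where 3.19% of all tested genes were called higher. Its median of 0.45 lies to the right of the shading. The 17 other transcription factors hold 0, where 5.83% of all tested genes were called in either direction. The lists were chosen with earlier results of these data known.

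Markers of other cell types were set beside these changes. The 10 fibroblast markers summed to 62.9 to 86.2 FPKM in CD20-negative and 104 to 144 FPKM in CD20-positive libraries. Of that list 3 of 10 passed the filter, COL1A1, COL3A1 and PDGFRB, and COL3A1 and PDGFRB were called higher with the block. PDGFRB, a growth factor receptor, measured 7.54, 1.87 and 1.70 FPKM in CD20-negative and 13.4, 2.95 and 2.91 FPKM in CD20-positive replicates 1, 2 and 3 (adjusted p = 0.0286 with the block and 0.812 without), so replicate 1 was highest in each fraction. In contrast, COL1A2, DCN, LUM, PDGFRA and THY1 reached at most 0.0113, 0.0166, 0.0421, 0.0136 and 0.0107 FPKM. The 16 epithelial markers summed to 458 to 608 and 565 to 704 FPKM, the 10 B-lymphocyte markers to 4.11 to 7.57 and 6.24 to 8.48 FPKM, the 8 markers of other leukocytes to 0.853 to 1.81 and 0.909 to 2.47 FPKM, and the 6 endothelial markers to 1.02 to 1.36 and 1.57 to 1.94 FPKM. Of the 9 tested epithelial markers, KRT17 was called higher with the block and 8 were not called. KRT17 measured 25.5 ± 12.8 FPKM in CD20-negative and 42.6 ± 22.7 FPKM in CD20-positive cells (SD, n = 3). Its groups overlapped (limma adjusted p = 0.0184 with the block and 0.752 without). The 16 melanocytic markers summed to 22.1 to 24.4 and 32.2 to 39.4 FPKM. PMEL, whose span overlaps another gene, CDK2, was the largest in 5 of 6 libraries and was called higher with the block (adjusted p = 0.0117), and GPR143 was the largest in CD20-negative replicate 1, at 9.61 against 8.73 FPKM. The part of these markers in the FN1 difference was not tested.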

How the data were processed

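RNA of 3 CD20-positive and 3 CD20-negative sorted fractions had been sequenced as polyadenylated RNA. The deposited table has no unit in its header. Its values were taken as FPKM made by the authors, because multiplied by the exon length in GENCODE release 29 they gave whole multiples of 1 step per library for 98.1 to 98.6% of low values (up to 20 fragments, tolerance 0.02). SNAI2 was whole at 2485 bases and not at the 3392 bases of that release, so its fragments are not printed. The tools named in the submitters' processing notes are featureCounts 1.5.0, HISAT2 and DESeq2, with the build GRCh38 (hg38). Their settings, and whether strand was used, are not stated there.

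The test was limma 3.58.1 (R 4.3.3, trend and robust prior) on log2(FPKM + 1) without the replicate block, for the 13155 genes whose mean reached 1 FPKM. Changes are CD20-positive minus CD20-negative, with a Benjamini-Hochberg threshold of 0.05. This scale understates changes of low genes. The filter is 1 and not 10 FPKM because SNAI2, ZEB1 and CDH2 lie under 10; members under 1 FPKM were taken from a fit with no filter. The fit was tested on simulated data. Members and lists were chosen with earlier results of these data known. The rule for naming list genes allowed those called without the block and up to 4 of each list with the smallest p in the blocked fit. Of those 4 the text gives the first and any with adjusted p under 0.1 there, plus CDH13, a narrowing made after their values were seen. Of the genes matched by pattern, 1 is not reported here. Alternatives covered pseudocount, filter, scaling, voom, the block and left-out libraries.

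Deviations from group means correlated between same-numbered libraries at 0.67, 0.24 and 0.51 for replicates 1, 2 and 3 (13155 genes), each above 0.1. CD20-positive replicate 2 with CD20-negative replicate 3 (0.40) and CD20-positive replicate 3 with CD20-negative replicate 2 (0.43) also passed that bar. Both lay above the 0.24 of replicate 2. The check sets replicate 1 apart but cannot show that replicates 2 and 3 are pairs by number. Replicate numbers were used as pairs in the block, and calls made with it rest on that choice.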

Additional observations from a re-analysis of the deposited data

How the results depend on the processing

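Leaving out pairs within the block, and the block with no filter, were chosen after seeing the data, and the other settings were planned. The count of called members, 0 without the block, was 1 with the replicate block, 1 with the block at a filter of 10 FPKM, 2 with voom and the block, 3 with the block and scaling to the FPKM total (FN1 higher, SNAI1 and TWIST2 lower), 2 and 1 with the block without pair 1 and without pair 3, and 0 to 2 when libraries were left out without the block. It was 0 with the block in the fit without pair 2, with no filter and with each gene's own spread. With the block and scaling to the FPKM total, 3833 of 13155 tested genes were called lower and 90 higher. The lower calls of SNAI1 and TWIST2 in that fit therefore do not set them apart from tested genes at large. The count over all genes, 1 in the fit reported first, was 767 with the replicate block, 954 with the block at 10 FPKM, 1540 with voom and the block, 3923 with the block and the FPKM total, 2141, 1 and 331 with the block without pair 1, without pair 2 and without pair 3, 0 with the block and no filter or each gene's own spread, 2 at pseudocount 10, 0 with no filter or voom, 1382 with the FPKM total, 9 with quantile normalisation, and 0 (without CD20-negative replicate 1, for example) to 1813 (without replicate 1) when libraries were left out; without CD20-positive replicate 1 alone it was 322. The cause was not tested.

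Scaling to the FPKM total, with or without the block, moved the median of all tested genes to -0.41 and turned VIM to -0.28, SNAI2 to -0.14, CDH24 to -0.13, FGFR1 to -0.17, FOXC2 to -0.15, NCSTN to -0.020 and NECTIN2 to -0.0074. ZEB1 and TWIST2, near 0, turned to 0.073 and 0.070 with the FPKM total without mitochondrial genes. TWIST2 also turned to 0.052 without replicate 2 (with or without the block) and to 0.0755, 0.063 and 0.076 without CD20-negative replicate 1, CD20-positive replicate 2 and CD20-positive replicate 3. ZEB1 turned to 0.041 without replicate 1 and 0.059 without replicate 3 (each with or without the block), and to 0.024, 0.049 and 0.026 without CD20-negative replicate 3, CD20-positive replicate 1 and CD20-positive replicate 3. SNAI1 turned to 0.093 without replicate 2, with or without the block, and FOXC2 to -0.29 without CD20-positive replicate 1. With libraries left out SNAI1 ranged from -0.36 to 0.093, TWIST2 from -0.23 to 0.076, ZEB1 from -0.13 to 0.059 and FOXC2 from -0.29 to 1.00. FN1 stayed higher in the 27 alternatives, at 0.57 (FPKM total) to 1.41 (without CD20-negative replicate 1), and CDH2 in its 25, at 0.0081 (FPKM total) to 0.51. CDH1 and TWIST1, at 3 to 12 fragments per library, are too shallow for a difference to be seen. The CDH2 to CDH1 ratio was the same from recovered fragments per kilobase.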

Other observations

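The members CDH1 and CDH2 belong to the cadherin superfamily, and the rest of that family was read after its values were seen. Of 113 protein-coding genes of cadherins, protocadherins, desmogleins, desmocollins, calsyntenins and related proteins, 15 reached a mean of 1 FPKM, 6 reached 10 FPKM and 33 were listed at 0 throughout. CDH2 was the 10th by level. The calsyntenin CLSTN1, a membrane protein of vesicle transport, was highest, at 35.0 ± 4.20 FPKM in CD20-negative and 55.4 ± 5.39 FPKM in CD20-positive cells (SD, n = 3), without overlap between groups (log2 change 0.65, limma adjusted p = 0.302, and 0.0306 with the replicate block). The desmosomal cadherin DSG2, which holds epithelial cells together at desmosomes, measured 23.4 ± 3.16 and 24.0 ± 3.11 FPKM (adjusted p = 0.931 with the block). The protocadherin PCDH1 measured 8.41 ± 0.654 and 14.6 ± 2.37 FPKM without overlap (log2 change 0.72, adjusted p = 0.253, and 0.0117 with the block). With the block 2 of the 15 tested genes of this family were called higher, CLSTN1 and PCDH1, where 3.19% of all tested genes were. Lower calls numbered 0, where 2.64% of all tested genes were called lower.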
